A study of Rattus norvegicus with 48 samples.

Results

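Nefl, Pcp4, Celf5 and Tceal9, genes known mainly from nerve cells, are 4 of the 13337 gene symbols on the array. They were chosen from results of these same arrays, as neuronal genes that were expressed in liver nodules and fell between 2 and 4 d of thyroid hormone. Levels in untreated nodules against control, and 4 d against 2 d or against untreated KRT-19-positive nodules, are therefore given as description without a test. Other comparisons carry p-values, but the nodule arrays they use, with or without T3, also entered the choice of the genes. These p-values are therefore conditioned on that choice. Each gene had 1 probe (ILMN_1361065 for Nefl, ILMN_1357041 for Pcp4, ILMN_1368676 for Celf5 and ILMN_1360900 for Tceal9), and all 4 passed the filter on dim probes. Not every name fits the description: Tceal9 is known from many tissues besides the nervous system, and Celf5 had most of its fall before 2 d.

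RNA of 48 liver samples from male Fischer rats was measured on Illumina bead arrays. There were 8 control livers, 10 KRT-19-negative preneoplastic nodules, 10 KRT-19-positive preneoplastic nodules, and 10 samples each of KRT-19-positive nodules after 2 d and after 4 d of T3. T3 is triiodothyronine, the active thyroid hormone, and KRT-19 is keratin 19, a filament protein of biliary and progenitor cells. No T3 dose, age or method of nodule induction was found in the labels used here. Nor do they state that each sample is a different animal, so the p-values cover sample-to-sample spread only, which could be technical.

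Nefl encodes the light subunit of neurofilaments, the intermediate filaments of axons, which it forms together with the medium and heavy subunits Nefm and Nefh. Pcp4, also called PEP-19, is a small calmodulin-binding protein named for the Purkinje cells of the cerebellum. Celf5 belongs to the CELF family of RNA-binding proteins, which regulate splicing and are strongest in brain. Tceal9 is a small X-linked protein of the TCEAL family, related to the elongation factor TFIIS, and its gene lies among the TCEAL and BEX genes. In most cells outside the nervous system the repressor REST is known to keep many neuronal genes off. Healthy hepatocytes are not known as a site of neurofilament expression.

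Promoters are shown as description. Over all 48 arrays the levels of Pcp4 and Tceal9 had r = 0.94, and Celf5 had lower values with both. That r spans the 5 groups whose levels entered the choice of the genes. Within groups (n = 10), r of Pcp4 and Tceal9 was -0.49 in KRT-19-positive and 0.73 in KRT-19-negative nodules, and 0.60 at 2 d. RefSeq's table held promoters of 3 of the 4 genes, namely Pcp4, Celf5 and Tceal9. The 250 bases before the start are printed from build GRCr8, 5′ to 3′. Capitals mark matches to the NRF2 core TGACNNNGC and the Sp1 box GGGCGG on either strand.
Pcp4 promoter, chr11:49269936-49270185, + strand: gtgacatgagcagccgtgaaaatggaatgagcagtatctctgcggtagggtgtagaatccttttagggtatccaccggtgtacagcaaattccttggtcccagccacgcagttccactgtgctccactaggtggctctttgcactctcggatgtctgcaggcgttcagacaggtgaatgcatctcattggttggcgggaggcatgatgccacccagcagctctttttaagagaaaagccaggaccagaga
Tceal9 promoter, chrX:104037024-104037273, + strand: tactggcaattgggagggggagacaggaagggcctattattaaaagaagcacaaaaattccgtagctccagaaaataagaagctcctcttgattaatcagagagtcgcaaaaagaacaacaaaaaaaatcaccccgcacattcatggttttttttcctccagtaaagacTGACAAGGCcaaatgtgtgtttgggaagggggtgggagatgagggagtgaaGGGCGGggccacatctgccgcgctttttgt
Celf5 promoter, chr7:8876335-8876584, + strand: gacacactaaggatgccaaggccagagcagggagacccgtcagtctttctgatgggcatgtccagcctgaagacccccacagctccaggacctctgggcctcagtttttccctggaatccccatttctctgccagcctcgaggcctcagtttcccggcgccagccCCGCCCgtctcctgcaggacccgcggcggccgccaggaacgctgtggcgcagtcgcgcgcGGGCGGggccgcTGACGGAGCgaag

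Motifs searched on both strands were chosen after levels had been seen and were the nuclear receptor hexamer AGGTCA, the left part of the REST site TTCAGCACC, the NRF2 core TGACNNNGC, the Sp1 box GGGCGG, the TATA box TATAAA and the cyclic AMP element TGACGTCA. Their matches in these windows did not overlap. The Pcp4 window held none of them. Tceal9 had an NRF2 core starting 81 bases and an Sp1 box starting 30 bases before the start. In Celf5 an NRF2 core started 13 bases, and Sp1 boxes started 85 and 25 bases, before the start. Of 33469 rat promoters of this length, 10.1% held the NRF2 core, 30.5% the Sp1 box, 14.1% the hexamer AGGTCA, 12.9% the TATA box, 1.6% the cyclic AMP element and 0.3% the left part of the REST site. A match describes letters only. GC content was 52.4% in the Pcp4 window, 46% in that of Tceal9 and 67.2% in that of Celf5, against a median of 51.2% over all promoters.

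Levels below are log2 of background-corrected, quantile-normalised intensity, and a probe counted as above background on an array when its detection p-value was under 0.05. Between 8380 and 10695 of 22523 probes were above background per array. Levels of different genes come from different probes and cannot be set against each other. Krt19 levels followed the labels and averaged 11.82 ± 0.62 (SD, n = 10) in KRT-19-positive and 8.37 ± 1.54 (SD, n = 10) in KRT-19-negative nodules. The mature hepatocyte product Alb averaged between 14.63 and 14.96 in the 5 groups, near the highest value of any probe, 15.27, so that larger differences would not show.

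Nefl, the axonal filament subunit, was below background on all 8 control arrays, with log2 levels from 4.49 to 4.88 and a median of 4.55. Their detection p-values ran from 0.322 to 0.939. In KRT-19-negative nodules the levels ran from 4.49 through a median of 5.96 to 8.11, and 6 of 10 arrays were above background. In KRT-19-positive nodules all 10 arrays were above background, from 10.49 through 11.95 to 13.30, with raw intensities from 1453 to 14706. Every KRT-19-positive array thus lay above every KRT-19-negative and every control array. After 2 d of T3 the levels ran from 9.34 through 11.22 to 12.77, all above background. At 4 d only 4 of 10 arrays were above background, at 10.28, 9.88, 9.20 and 8.38, while the other 6 lay between 4.43 and 5.10, close to the control range. The group means were in the order KRT-19-positive (11.96 ± 1.06, SD, n = 10), T3 2 d (11.18 ± 1.13, SD, n = 10), T3 4 d (6.60 ± 2.50, SD, n = 10), KRT-19-negative (6.00 ± 1.36, SD, n = 10) and control (4.59 ± 0.13, SD, n = 8). Ranges of KRT-19-positive and 2 d samples overlapped, as did those of T3 4 d, KRT-19-negative and control samples, and the 4 d range also reached into the 2 d range.

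Pcp4, the calmodulin-binding protein, was faint but above background on all 8 control arrays, from 5.64 through 5.69 to 6.32. KRT-19-negative nodules ran from 5.06 through 9.79 to 11.62, and the lowest, array 3, was the only array of all 48 on which Pcp4 was not above background (detection p-value 0.183). KRT-19-positive nodules were tighter, from 11.11 through 12.19 to 12.64. With 2 d of T3 the range was 10.29 through 11.87 to 12.88. At 4 d it was 6.42 through 7.73 to 10.10, below every 2 d array and above every control array. Mean levels were 12.07 ± 0.46 (SD, n = 10) in KRT-19-positive nodules, 11.87 ± 0.82 (SD, n = 10) with 2 d of T3, 9.52 ± 1.85 (SD, n = 10) in KRT-19-negative nodules, 8.14 ± 1.42 (SD, n = 10) at 4 d and 5.88 ± 0.30 (SD, n = 8) in control. KRT-19-positive nodules and the 2 d samples overlapped, and so did KRT-19-negative nodules and the 4 d samples.

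Tceal9 was above background on all 48 arrays. Control livers ran from 6.24 through 6.78 to 7.22 and KRT-19-negative nodules from 7.57 through 9.09 to 11.30, so these ranges did not overlap, as in this direction for 1.17% of features. KRT-19-positive nodules lay between 11.06 and 12.41 with a median of 11.73, and the 2 d samples between 10.51 and 11.96 with a median of 11.39. At 4 d the levels were 6.67 through 7.29 to 9.41, again below every 2 d array but reaching into the control range. The means were 11.70 ± 0.37 (SD, n = 10) in KRT-19-positive, 11.44 ± 0.45 (SD, n = 10) in 2 d, 9.02 ± 1.23 (SD, n = 10) in KRT-19-negative, 7.81 ± 1.06 (SD, n = 10) in 4 d and 6.70 ± 0.31 (SD, n = 8) in control samples. The order of the groups was that of Pcp4.

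Celf5, the RNA-binding protein, had the weakest signal and another time course. No control array was above background (4.44 to 4.77, median 4.67). Of the KRT-19-negative nodules, 7 of 10 were above background, and the 10 measured levels ran from 4.92 through 6.09 to 8.01. These lay above the control range, as in this direction for 1.17% of features. The other 3 nodules and all controls were not above background, so that part of the separation lies within background. All 10 KRT-19-positive nodules were above background, from 6.20 through 7.59 to 8.31, with raw intensities between 197.1 and 551.2. At 2 d 2 of 10 arrays were above background (4.77 through 5.06 to 6.20), and at 4 d 1 array was (4.42 through 4.76 to 6.21). The means were 7.31 ± 0.79 (SD, n = 10) in KRT-19-positive nodules, 6.31 ± 1.17 (SD, n = 10) in KRT-19-negative nodules, 5.22 ± 0.51 (SD, n = 10) at 2 d, 4.89 ± 0.51 (SD, n = 10) at 4 d and 4.62 ± 0.12 (SD, n = 8) in control. The last 3 groups lay at or near background.

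**Figure D1:**
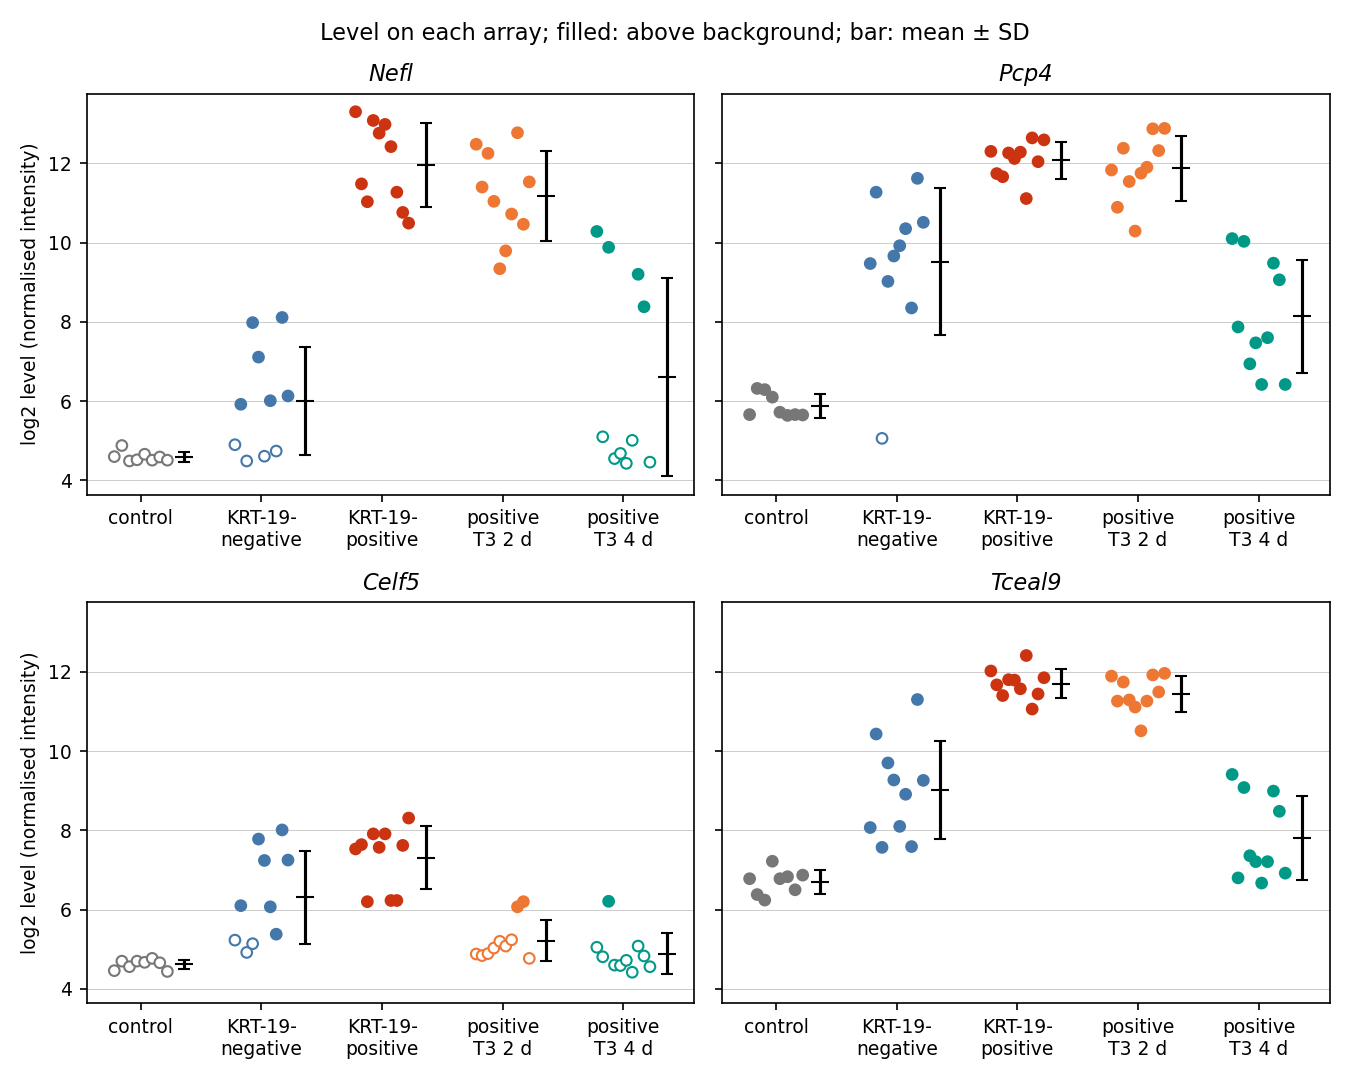
Log2 level of each gene (y axis) on every array of the 5 groups (x axis); filled points are above background, open points are not, and the bar beside each group is the mean ± SD. Nefl, Pcp4 and Tceal9 stay high at 2 d and drop at 4 d, where 4 arrays keep Nefl above background, whereas Celf5 is above background on only 2 arrays at 2 d.

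All 4 genes had ranges in KRT-19-positive nodules wholly above control, as did 8.58% of 11558 features. Since expression in nodules chose the genes, nothing is read from that count. The difference from control was 6.19 log2 for Pcp4 and 5.00 log2 for Tceal9. For Nefl and Celf5, whose control levels are only bounded by background, KRT-19-positive nodules were at least 91.1-fold and at least 3.65-fold higher, each bound set from the lowest level above background on each control array. From 2 d to 4 d the means of Nefl, Pcp4 and Tceal9 differed by -4.58, -3.73 and -3.63 log2, and that of Celf5 by -0.34. Nefl was not above background on 6 of 10 arrays at 4 d, and Celf5 on 8 of 10 at 2 d and 9 of 10 at 4 d, so these differences of measured means lie partly at background. Ranges wholly below the 2 d range, found for Pcp4 and Tceal9, occurred in 4.5% of features. In bulk tissue, fewer cells that express a gene and less RNA per cell cannot be told apart.

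KRT-19-positive and KRT-19-negative nodules were then compared. This contrast was not itself used to choose the genes. Expression in nodules was, so its p-values are conditioned on that choice too. All 4 genes were higher in KRT-19-positive nodules (limma, n = 10 and n = 10, Benjamini-Hochberg adjustment over all features), against 17.3% of features called higher, 14.7% lower and 32% in either direction. Nefl showed a difference of 5.96 ± 0.61 log2 (SE, adjusted p = 2.06e-10), a 62.1-fold higher level of the measured means, with 6 of 10 KRT-19-negative arrays above background. The difference was 4.52 in the authors' value table and 4.47 without background subtraction. Its 2 ranges were separate, as in this direction for 1.48% of features. Tceal9 differed by 2.68 ± 0.33 (adjusted p = 1.1e-08), which is 6.41-fold, and Pcp4 by 2.55 ± 0.48 (adjusted p = 2.98e-05), which is 5.86-fold. For both, 9 of 10 KRT-19-positive arrays lay above the highest KRT-19-negative array. Celf5 differed by 1.00 ± 0.31 (adjusted p = 0.0085), with only 1 of 10 KRT-19-positive arrays above all KRT-19-negative ones, and by 0.47 in the authors' value table. Celf5 missed the threshold when just these 2 groups were fitted (adjusted p = 0.0559) and when the count of detected probes entered as a covariate (difference 0.57, adjusted p = 0.231), over alternatives with adjusted p from 0.000412 to 0.231. That count was 9424 to 10695 in KRT-19-positive and 8380 to 10417 in KRT-19-negative nodules.

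The first T3 interval, 2 d against untreated KRT-19-positive nodules, uses arrays that entered the choice of the genes, since a fall after 2 d needs a high 2 d level. Celf5 had a log2 difference of -2.09 (SE 0.31, adjusted p = 3.98e-07), with 2 of 10 arrays above background at 2 d, while 15.5% of features were called lower, 15.8% higher and 31.3% either way. The difference was -0.96 in the authors' value table and -0.93 without background subtraction. On 9 of 10 arrays the Celf5 level was below every untreated KRT-19-positive array. The difference was -0.78 for Nefl (95% interval -2.01 to 0.46, adjusted p = 0.353), -0.21 for Pcp4 (-1.17 to 0.76, adjusted p = 0.78) and -0.26 for Tceal9 (-0.92 to 0.41, adjusted p = 0.597). None of these 3 passed the threshold, and the intervals still allow a fall of more than 1 log2 for Nefl and Pcp4. Differences between the genes' responses were not tested. For comparison, Krt19 fell by 1.58 (SE 0.38, adjusted p = 0.0011), and Gstp1, the glutathione transferase that marks preneoplastic rat hepatocytes, had a difference of -0.04 (95% interval -1.04 to 0.97, adjusted p = 0.965) close to the highest value of any probe. Thrsp, a classical T3 target, was higher by 0.53 ± 0.14 (SE, adjusted p = 0.0031), from an untreated mean of 13.66 already near the highest value of any probe. Among the called T3 response genes the largest changes were rises of Gpd2 (2.93, adjusted p = 1.48e-20), Dio1 (2.72, adjusted p = 1.09e-24) and Me1 (2.48, adjusted p = 5.8e-13).

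Samples at 4 d were set against KRT-19-negative nodules and control liver. A low 4 d level was part of the choice of the genes, so nothing is read from the counts of genes called in either comparison. Compared with KRT-19-negative nodules, 3 of the 4 genes were called lower, against 22.6% of features called lower, 24% higher and 46.5% either way. Celf5 had a log2 difference of -1.43 (SE 0.31, adjusted p = 0.000118), with 1 of 10 arrays above background at 4 d and 7 of 10 in KRT-19-negative nodules. It was -0.67 in the authors' value table and -0.65 without background subtraction. Pcp4 had a difference of -1.38 (SE 0.48, adjusted p = 0.0152) and Tceal9 one of -1.21 (SE 0.33, adjusted p = 0.00235). Pcp4 no longer passed when just these 2 groups were fitted (adjusted p = 0.0805, alternatives from 0.000479 to 0.0805). The Nefl difference was 0.60 (95% interval -0.64 to 1.83, adjusted p = 0.445), with 4 of the 4 d arrays above, and 2 below, all KRT-19-negative arrays. Those 2 and the lowest KRT-19-negative array were not above background, so their order is not read.

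Against control liver, 3 of the 4 genes were called higher at 4 d, where 21.7% of features were called higher, 20.3% lower and 42% either way. Pcp4 was higher by 2.26 ± 0.51 log2 (SE, adjusted p = 0.000267), 4.79-fold, with 10 of 10 arrays above all controls, as for 6.35% of features. This difference was 1.34 in the authors' value table and 1.31 without background subtraction. Tceal9 was higher by 1.11 ± 0.35 (adjusted p = 0.00868), with 5 of 10 arrays above all controls, and by 0.72 in the authors' value table. Nefl had a measured log2 difference of 2.00 (SE 0.65, adjusted p = 0.0106), which rests on the 4 of 10 arrays above background at 4 d. The other 6 arrays and all controls were not above background, so no bound on the fold is given. Celf5 differed by 0.27 (95% interval -0.39 to 0.92, adjusted p = 0.548) and was below background on all control arrays and 9 of the 4 d arrays. Nefl missed the threshold with array weights (adjusted p = 0.0691) and with the detected-probe covariate (adjusted p = 0.0782, alternatives from 0.00951 to 0.0782). Tceal9 missed it with that covariate (adjusted p = 0.0513, alternatives from 0.00774 to 0.0513). Detected probes numbered 8838 to 10379 at 4 d and 8744 to 9682 in control.

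**Figure D2:**
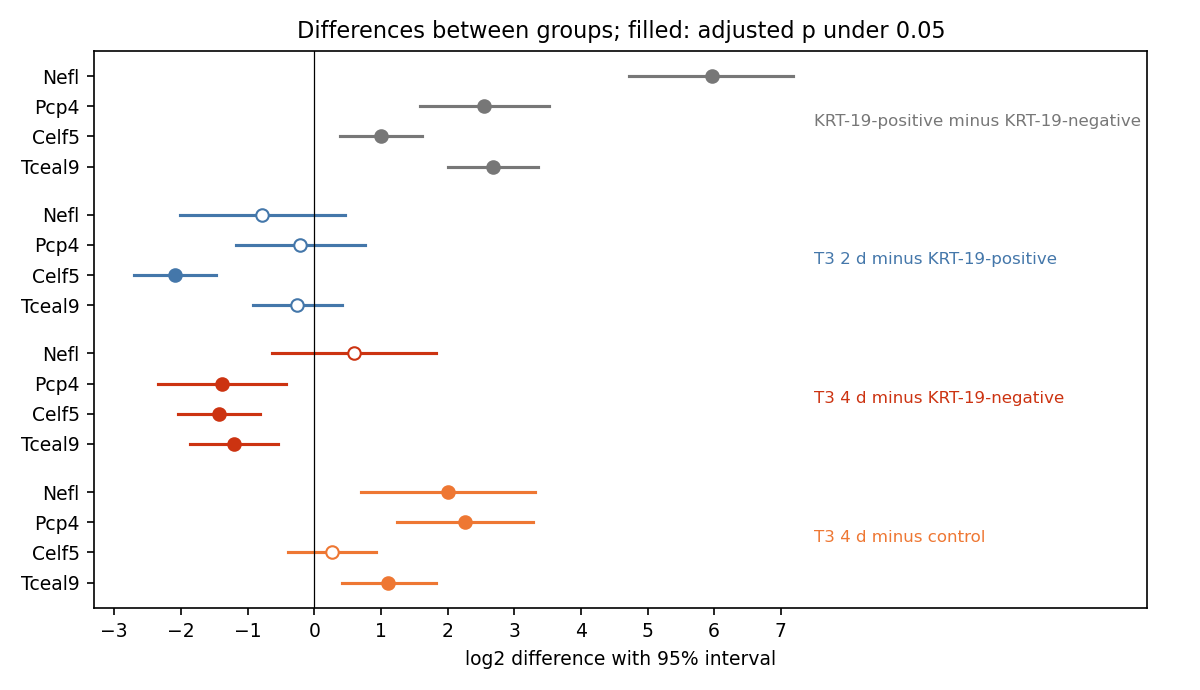
Log2 difference between groups (x axis) of each gene in the 4 tested comparisons, with 95% intervals; filled points have an adjusted p under 0.05. The nodule arrays, those at 2 d and 4 d included, entered the choice of the genes. Nefl has the largest difference between the nodule types, 5.96, and at 4 d against control the calls of Nefl and Tceal9 are lost under some settings (adjusted p up to 0.0782 and 0.0513).

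The 4 d samples were uneven. Arrays 1, 3, 8 and 9 held the 4 highest levels of Nefl (8.38 to 10.28), of Pcp4 (9.06 to 10.10) and of Tceal9 (8.48 to 9.41). On the other 6 arrays Nefl reached at most 5.10, Pcp4 at most 7.87 and Tceal9 at most 7.36. The same 4 arrays were also the highest for Gstp1, at 12.95 to 14.50 against at most 10.56 elsewhere, and for Krt19, at 8.21 to 8.77 against at most 7.94. For Celf5 only array 3 (6.21) was above background at 4 d, so the order of the other arrays is not read. The summed level of 8 bile duct and progenitor markers on the array, Krt19 included, ran from 4920 to 18200 at 4 d, and that of 8 stellate cell and fibroblast markers from 2980 to 8050, in background-corrected intensity units. No test was made between arrays divided by these levels, and the part of other cells in the values was not tested.

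KRT-19-negative nodules were uneven as well. Array 9 was highest for all 4 genes, at 8.11 for Nefl, 11.62 for Pcp4, 8.01 for Celf5 and 11.30 for Tceal9, and was also highest for Krt19 (10.09) and Gstp1 (15.18). Array 3 had the lowest measured level of all 4 genes (4.49, 5.06, 4.92 and 7.57) and of Gstp1 (9.25), while its Krt19 level of 7.53 was not the lowest. Of the 4 genes only Tceal9 was above background on array 3. Nefl was not above background on 4 arrays of this group and Celf5 on 3, so their order among those arrays is not read. Between these ends the genes parted. Array 4 was near the top for Nefl (7.98) but near the bottom for Celf5 (5.14), and array 6 the reverse (4.61 and 7.24).

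**Figure D3:**
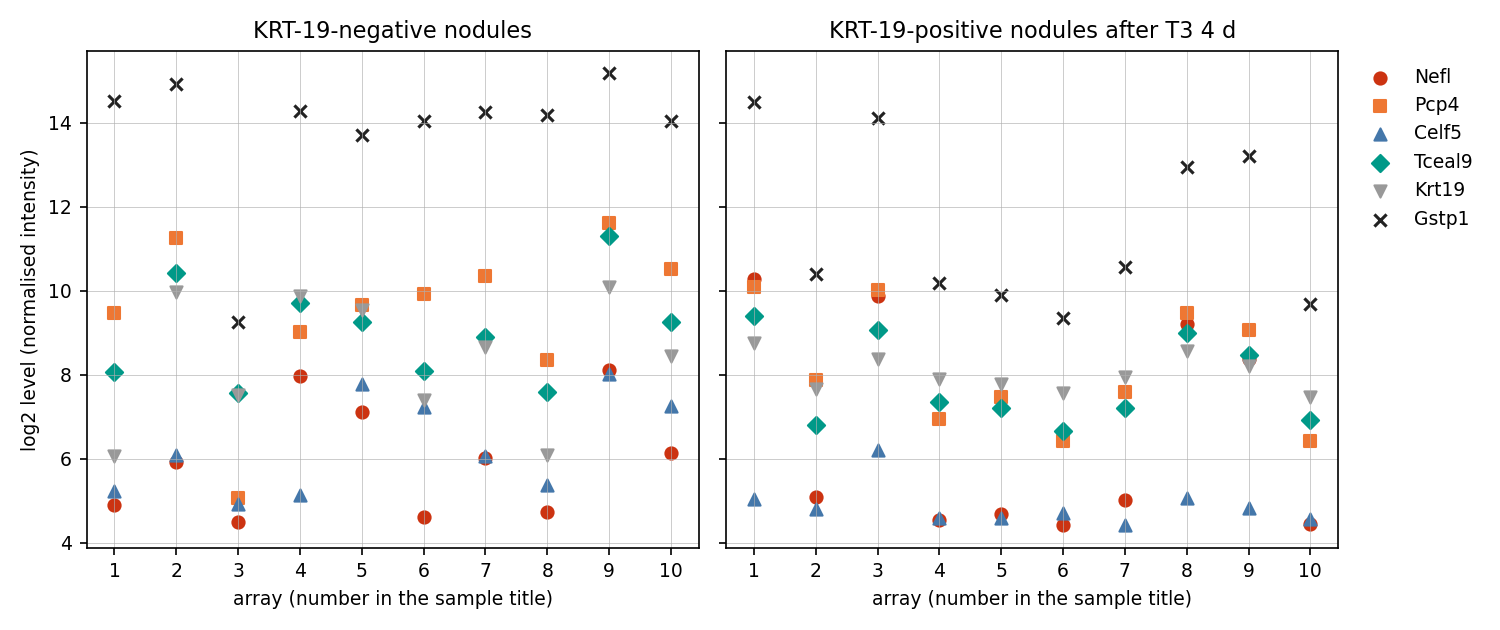
Log2 level (y axis) of the 4 genes, Krt19 and Gstp1 on each array (x axis, number in the sample title) of KRT-19-negative nodules, left, and of KRT-19-positive nodules after 4 d of T3, right. At 4 d, arrays 1, 3, 8 and 9 stand above the rest for Nefl, Pcp4, Tceal9 and Gstp1.

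Variation between arrays of the same group was measured for pairs of these genes and for each gene with Krt19 and Gstp1. Of 56 pairs in the 4 nodule groups, 23 were left out because a probe was above background on fewer than 8 arrays, and 14 because levels fell into separate clusters by a rule set after the levels were seen, so 19 were computed with two-sided permutation p-values adjusted over those 19. In KRT-19-negative nodules Tceal9 followed Krt19 (n = 10, r = 0.88, permutation p = 0.00099, adjusted p = 0.015, rho = 0.90, permutation p = 0.00071, adjusted p = 0.0135), and r was 0.90 without the 2 arrays farthest from the median of Krt19. Pcp4 followed Gstp1 there (n = 10, r = 0.90, permutation p = 0.00384, adjusted p = 0.015), but rho was 0.53 (permutation p = 0.119, adjusted p = 0.188). Without the 2 arrays farthest from the median of Gstp1, r fell to 0.38, so this relation rests on those arrays. Pcp4 and Tceal9 had r = 0.73 (n = 10, permutation p = 0.0137, adjusted p = 0.0431) and rho = 0.75 (permutation p = 0.0179, adjusted p = 0.0607).

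After 2 d of T3, Nefl followed Krt19 (n = 10, r = 0.82, permutation p = 0.00353, adjusted p = 0.015, rho = 0.82, permutation p = 0.00529, adjusted p = 0.0349), with r = 0.69 without the 2 arrays farthest from the median of Krt19. Nefl and Tceal9 also varied together (n = 10, r = 0.81, permutation p = 0.00396, adjusted p = 0.015, rho = 0.82, permutation p = 0.00551, adjusted p = 0.0349), with r = 0.82 without the 2 arrays farthest from the median of Nefl. Tceal9 followed Gstp1 (n = 10, r = 0.83, permutation p = 0.00293, adjusted p = 0.015, rho = 0.72, permutation p = 0.0224, adjusted p = 0.0607), with r = 0.68 without the 2 arrays farthest from the median of Gstp1. Gstp1 spanned only 14.64 to 15.27 there, up to the highest value of any probe, so its spread may be compressed. Tceal9 and Krt19 had r = 0.74 (n = 10, permutation p = 0.0159, adjusted p = 0.0431) and rho = 0.72 (permutation p = 0.0222, adjusted p = 0.0607). Without the 2 arrays farthest from the median of Krt19, r fell to 0.41, so this relation rests on those arrays. Pcp4 and Tceal9 had r = 0.60 (n = 10, permutation p = 0.0663, adjusted p = 0.143) and rho = 0.80 (permutation p = 0.00805, adjusted p = 0.0382). In untreated KRT-19-positive nodules none of the 5 pairs computed passed, with r from -0.49 to 0.25. Both levels of a point come from the same array and share its RNA and normalisation. Arrays with earlier and later title numbers are 5 each per nodule group, too few for values within them.

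**Figure D4:**
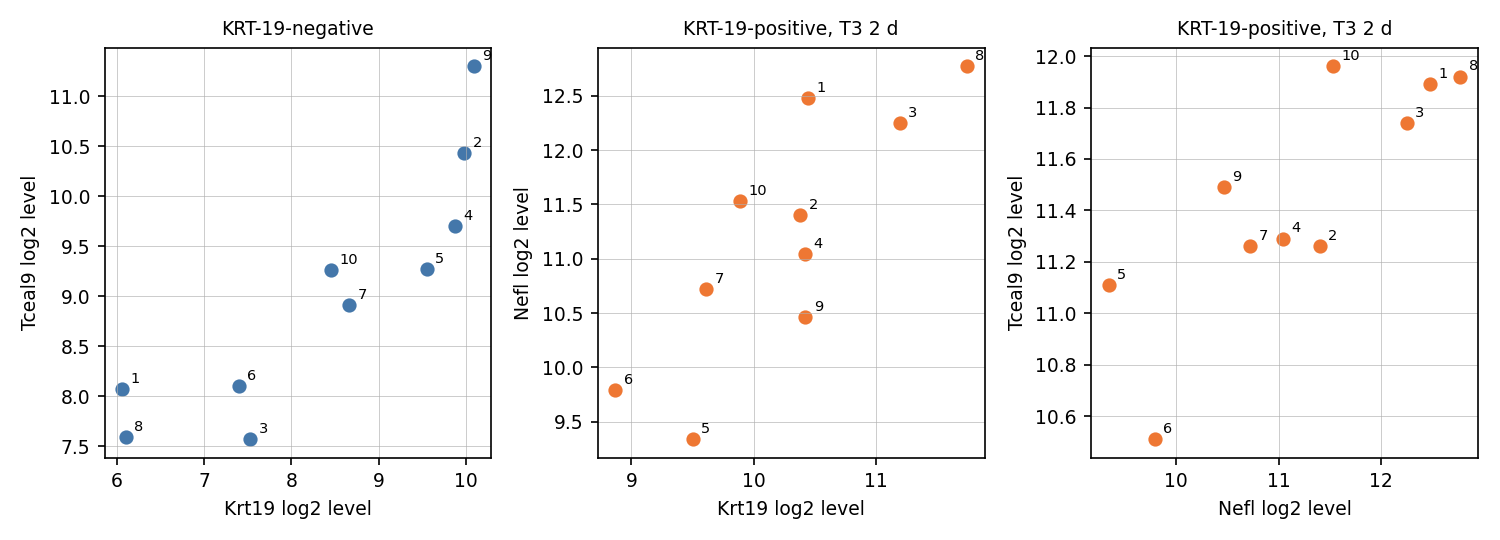
Log2 level of one gene against another, 1 point per array with its number, for Tceal9 against Krt19 in KRT-19-negative nodules (r = 0.88), and for Nefl against Krt19 (r = 0.82) and Tceal9 against Nefl (r = 0.81) after 2 d of T3. Levels rise together in all 3 panels.

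The other neurofilament subunits and related filaments were looked at next, leaving Nefl out. Of 7 on the array, 4 were tested and Ina and Prph, filament proteins of neurons, were above background on no array. Against KRT-19-negative nodules, 3 of 4 were higher in KRT-19-positive nodules and none was lower (median 0.59, all features -0.01), where 17.3% of all features were higher and 14.7% lower. Nefm, the medium subunit, whose gene is the neighbour of Nefl on chromosome 15 in RefSeq's GRCr8 annotation, differed by 1.21 ± 0.25 (SE, adjusted p = 0.000137). Its means were 5.72 ± 0.45 (SD, n = 8) in control, 5.82 ± 0.32 (SD, n = 10) and 7.03 ± 0.80 (SD, n = 10) among nodules without and with KRT-19, 6.89 ± 0.80 (SD, n = 10) at 2 d and 5.50 ± 0.37 (SD, n = 10) at 4 d. From 2 d to 4 d Nefm fell by 1.38 (SE 0.25, adjusted p = 9.5e-06), in a comparison where 22.1% of features were called lower. Other tested genes within 3 places of Nefl, namely Kctd9 (-0.24, adjusted p = 0.0576), Gnrh1 and Adam7, were not called between the nodule types. Near Pcp4 and Celf5, Sh3bgr, Mx1 and Gna15 were called higher there, while Igsf5, Bace2, S1pr4 and Ncln did not pass. The heavy subunit Nefh was above background on 5 KRT-19-positive and no KRT-19-negative arrays, so no fold is given. Its measured mean in KRT-19-positive nodules was 5.27, near the 5.17 of control. The mesenchymal filament Vim was higher by 0.79 (adjusted p = 1.13e-05).

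Of the TCEAL, BEX and TCEA proteins other than Tceal9, 6 were tested, and 3 were higher in KRT-19-positive than in KRT-19-negative nodules, none lower (median 0.28), against 17.3% and 14.7% of all features. Bex3, whose gene lies beside Tceal9 on chromosome X and whose protein binds the neurotrophin receptor p75, differed most, by 1.92 ± 0.23 (SE, adjusted p = 4.38e-09). Its level was 6.97 ± 0.51 (SD, n = 8) in control, 8.33 ± 0.85 (SD, n = 10) in KRT-19-negative nodules, 10.25 ± 0.34 (SD, n = 10) in KRT-19-positive ones, 9.93 ± 0.34 (SD, n = 10) at 2 d and 7.71 ± 0.49 (SD, n = 10) at 4 d. At 4 d Bex3 fell by 2.22 from 2 d (SE 0.23, adjusted p = 2.08e-11) and was 0.74 above control (adjusted p = 0.0108). Tceal8 (0.81, adjusted p = 8.71e-07) and Tceal1 (0.66, adjusted p = 0.00532) were also higher in KRT-19-positive nodules. At 2 d, 2 of the 6 were lower, against 15.5% of all features, Tceal1 (-0.51, adjusted p = 0.0331) and the elongation factor Tcea3 (-0.41, adjusted p = 0.00371). At 4 d against KRT-19-negative nodules 2 were lower, against 22.6% of all features, Tcea3 (-1.41, adjusted p = 6.07e-15) and Bex3 (-0.62, adjusted p = 0.0211).

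Of the calmodulin and calmodulin-binding genes other than Pcp4, 8 were tested. In KRT-19-positive against KRT-19-negative nodules 3 were higher and none lower (median 0.05), against 17.3% and 14.7% of all features. They were the neuronal calmodulin-binding protein Nrgn (0.50, adjusted p = 0.0225), the calmodulin gene Calm2 (0.45, adjusted p = 5.74e-05) and the kinase subunit Camk2b (0.45, adjusted p = 0.0377). Nrgn was above background on 4 of 10 and Camk2b on 5 of 10 KRT-19-negative arrays, so their differences lie partly at background. At 2 d, 3 of the 8 were lower and 1 was higher (median -0.17), against 15.5% and 15.8% of all features, led by Calm3, which fell by 0.72 (adjusted p = 1.01e-08). Of 11 splicing factors tested besides Celf5, 2 were higher in KRT-19-positive nodules and none lower (median -0.03), a share near the 17.3% of all features called higher. These were Ptbp2 (0.56, adjusted p = 0.0194) and Rbfox2 (0.44, adjusted p = 0.0163). The Ptbp2 mean in KRT-19-positive nodules, 6.28, was near the 6.32 of control. In KRT-19-negative nodules it was 5.73, with 6 of 10 arrays above background. No CELF gene other than Celf5 was called between the nodule types. Celf1, the widely expressed family member, was at 7.64 in KRT-19-positive and 7.63 in KRT-19-negative nodules, and at 8.29 after 4 d, 0.66 above KRT-19-negative nodules (adjusted p = 1.51e-06).

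Markers of nerve and neuroendocrine cells as a class were near background. Of 35 on the array, 9 were above background on none of the 48 arrays, among them the chromogranins Chga and Chgb, Uchl1, Ncam1 and Gad1, and 19 on only 1 to 7 arrays, among them the synaptic proteins Snap25, Syp and Syt1. The remaining 7 were tested. In KRT-19-positive against KRT-19-negative nodules 1 was higher, the enolase Eno2 (0.52, adjusted p = 0.0034), and 6 did not pass (median -0.09), against 17.3% of all features called higher. Eno2 was above background on 3 of 10 KRT-19-negative arrays, so this difference lies partly at background. Against control, Sncg was higher in KRT-19-positive nodules by 0.48 (adjusted p = 0.0175), but it was above background on 7 of 10 of these and 1 of 8 control arrays. Eno2, not above background on any control array, was at least 1.29-fold higher, with a measured difference of 0.83 (adjusted p = 8.4e-06). Stmn3 had a measured difference of -0.78 (adjusted p = 1.75e-05). It was above background on no KRT-19-positive array and on only 6 of 8 control arrays. The control mean thus includes arrays at background, so no bound is given. In that comparison 24.8% of features were called higher and 23.9% lower. The summed level of the 35 genes lay between 470 and 674 background-corrected intensity units over all arrays, with group medians from 512 to 553, and its ranges overlapped in all 5 groups. Most of these genes were rarely above background, so the sum is largely background and nothing is read from the overlap. Of the Purkinje cell markers 6 were on the array and 3 were tested. None was called between KRT-19-positive and KRT-19-negative nodules, against 32% of all features called in either direction. At 4 d against control, Itpr1 was higher by 1.34 (adjusted p = 2.23e-14) and the other 2 did not pass, where 21.7% of features were called higher and 20.3% lower.

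Markers of other cells moved with the nodule groups. Schwann cell and glia markers were called higher for 3 and lower for 1 of 8 in KRT-19-positive against KRT-19-negative nodules, against 17.3% and 14.7% of all features. Pmp22 was higher by 1.21 (adjusted p = 3.25e-06) and the myelin protein Mbp had a difference of -0.42 (adjusted p = 0.0157). S100b had a measured difference of 0.96 (adjusted p = 2.37e-06). It was above background on no KRT-19-negative array and on only 8 of 10 KRT-19-positive arrays. The KRT-19-positive mean thus includes arrays at background, so no bound is given. Their summed level over 9 genes was 1080 to 1710 in KRT-19-negative and 1610 to 2120 in KRT-19-positive nodules. Much of the bile duct and progenitor sum came from 1 gene, Krt8. Its mean log2 level was 12.47 in control, 13.40 in KRT-19-negative and 14.18 in KRT-19-positive nodules. The sum is therefore not read as an amount of such cells. Bile duct and progenitor markers, 8 on the array, summed to 5470 to 6710 in control, 7850 to 17900 in KRT-19-negative, 19700 to 31200 in KRT-19-positive and 12200 to 21700 in 2 d samples. Stellate cell and fibroblast markers, also 8, summed to 1690 to 2410, 2430 to 6590, 5800 to 12000 and 6050 to 10000 in the same groups. Mature hepatocyte markers, 11 on the array, summed to 185000 to 224000, 188000 to 220000, 111000 to 182000 and 152000 to 189000 there. Their part in the levels of Nefl, Pcp4, Celf5 and Tceal9 was not tested. The REST probe was above background on 1 of 48 arrays and was not tested. Of 4 tested partners of REST, the methyltransferase Ehmt2 was lower in KRT-19-positive than in KRT-19-negative nodules (-0.45, adjusted p = 0.0046). The other 3 did not pass, where 14.7% of all features were called lower. Against control, 3 of the 4 were lower in KRT-19-positive nodules and none higher, against 23.9% of features called lower. At 4 d against KRT-19-negative nodules 3 were lower and none higher, against 22.6%. A link to the levels of the 4 genes was not tested.

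**Figure D5:**
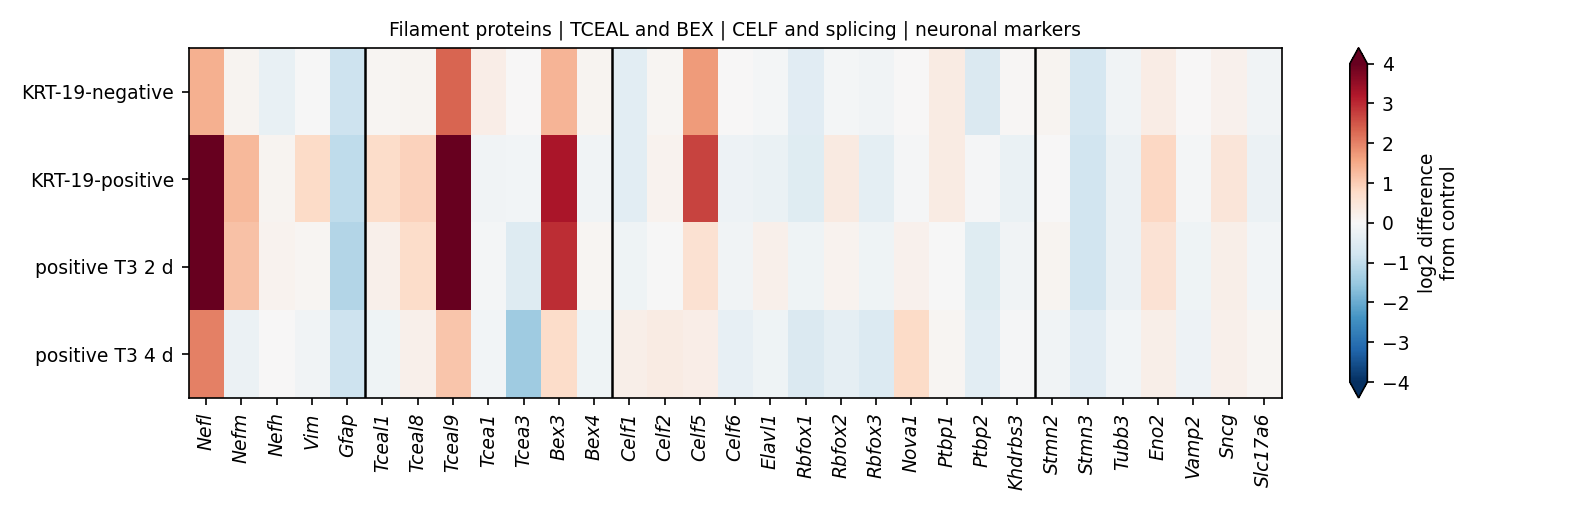
Difference of each group mean from the control mean (colour, log2 units, colours saturate at 4) for the tested genes of 4 lists in the 4 nodule groups. Nefl, Tceal9, Bex3 and Celf5 stand out, while the measured means of the 7 neuronal markers at the right, some at background, stay within 0.83 of control.

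Genes whose level over all 48 arrays was most like that of each gene were named by Pearson correlation, as a description over arrays that share 5 groups and common processing. For Nefl they were Slc66a3, Tspan3 and Taldo1 (r = 0.96 each) and Akr1c13 and Agtpbp1 (r = 0.95 each). Taldo1 is the pentose phosphate enzyme transaldolase and Agtpbp1 a tubulin deglutamylase known for loss of Purkinje cells in mutant mice. Pcp4 was most like the aldo-keto reductase Akr1b8 (r = 0.97), the rho-binding protein Rtkn and the glutathione synthesis enzyme Gclc (r = 0.96 each), and the reductases Ptgr1 and Nqo1 (r = 0.95 each). For Tceal9 they were the defensin Defb1 (r = 0.98), and Bex3, the protease inhibitor Spint1, Nqo1 and Plp2 (r = 0.97 each). Celf5 had lower values, with Samd4a (r = 0.84), Tsx (r = 0.83), and S100a16, Dennd2d and the glutamate receptor subunit Gria3 (r = 0.81 each). Among themselves, Tceal9 had r = 0.94 with Pcp4 and 0.93 with Nefl, Nefl and Pcp4 had 0.87, and Celf5 had 0.49 with Nefl, 0.60 with Tceal9 and 0.63 with Pcp4.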

How the data were processed

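RNA of 48 rat liver samples was hybridised to 1-colour Illumina bead arrays, grouped by sample title. The deposited table without normalisation holds a linear intensity per probe and array and, per the file headers, a detection p-value for each (steps of 1 in 825 as read from the values). BeadStudio 3.0.19.0 is named in the submitters' processing notes. The value table deposited by the authors holds intensities that were quantile normalised, as read from the values, and served as an alternative. The genome build is not given in the sources used here.

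The neqc function (limma 3.58.1, R 4.3.3) removed background by means of the detection p-values, then normalised by quantiles and took log2 with an offset of 16. A probe stayed if it reached a detection p-value under 0.05 on 8 or more arrays (11723 probes), and per symbol the probe with the highest mean raw intensity was used, leaving 11558 features. Of 22523 probes, 13793 had 1 symbol, 8730 none and none several. One linear model, in which each group has its own coefficient, covered the 48 arrays (lmFit, eBayes with a trend), and p-values were adjusted by Benjamini-Hochberg over all features, with a threshold of 0.05. The fit was tested on simulated data. The genes, lists and comparisons were chosen with earlier results of these data known, and the promoter motifs, neighbouring genes and cluster rule for correlations after levels had been seen. Named genes are the 4 genes, Krt19, Gstp1, Alb, Thrsp and Rest, up to 4 called members per list with the largest change, called members of the filament, CELF and TCEAL families, and the 5 genes most like each. Lists count measured members without the 4 genes. Alternatives were the value table, no background subtraction, median scaling, offset 50, no and strict filters, fits to the compared groups, array weights, detected probes as a covariate, blocks for title numbers and leaving out each array. The number of arrays limits the precision.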

Additional observations from a re-analysis of the deposited data

Results flagged for a closer look

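Of 20 sets of levels (4 genes in 5 groups), 3 held an array whose gap to its nearest neighbour was a larger part of the group's range than Dixon's limit allows, and chance alone marks about 1 in 20 sets. Pcp4 was at 5.06 on KRT-19-negative array 3, and the next array was at 8.35. Gstp1 was also lowest there, at 9.25. Celf5 was at 6.21 on T3 4 d array 3, and the next array was at 5.08. Nefl was at 4.88 on control array 2 against 4.66 on the next, with neither above background.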

How the results depend on the processing

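The 16 differences (4 genes in 4 tested comparisons) kept their side of the threshold in 170 of 176 fits with other settings and in all 768 fits that left out an array. The 6 exceptions lost a call. They were Celf5 between KRT-19-positive and KRT-19-negative nodules (1.00 with only the groups compared, 0.57 with detected probes as covariate), Pcp4 at 4 d against KRT-19-negative nodules (-1.38 with only the groups compared), and Nefl (1.59 with array weights, 1.36 with the covariate) and Tceal9 (0.85 with the covariate) at 4 d against control. The cause was not tested. Scaling to equal medians without quantile normalisation moved the median of all features by 0.29 between the nodule types and by -0.37 at 2 d. It moved the number of features called from 3620 (1826 higher, 1794 lower) to 5736 (415 higher, 5321 lower) at 2 d, from 5377 to 3466 at 4 d against KRT-19-negative nodules, and from 4855 (2506 higher, 2349 lower) to 2994 (1871 higher, 1123 lower) against control. Between nodule types the split went from 2005 higher and 1699 lower to 4169 and 377. Relative to the median of all features the differences between nodule types were then 5.85 for Nefl, 2.54 for Pcp4, 1.06 for Celf5 and 2.73 for Tceal9, and at 2 d they were -0.85, -0.28, -2.10 and -0.34. Differences not past the threshold at 2 d changed sign with detected probes as covariate (0.16 for Nefl, 0.36 for Pcp4 and 0.13 for Tceal9). In the authors' value table, which subtracts no background, Nefl differed by 4.52 and Celf5 by 0.47 between nodule types, and 15 of 40 mean levels moved by more than the SD of their group under that table or offset 50, by construction of their floors. Title numbers do not pair the arrays by their labels, and deviations of same-numbered arrays correlated between -0.43 and 0.29. With the replicate block 3619 features were called between nodule types, 3521 at 2 d, 5291 at 4 d against KRT-19-negative nodules and 4722 against control, and no call of the 4 genes changed. At most 1 array per comparison correlated best with its own number. Of 38 repeats of the within-group correlations, 5 moved by 0.2 or more, all without the 2 farthest arrays. Signal over background limits Nefl and Celf5 in control and at 4 d.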
